A study of Homo sapiens with 12 samples.

Results

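The comparison of MLN8237 alone with vehicle covered 6 of the 12 RNA-seq libraries of the series: 3 libraries of PANC-1 cells given 90 nM MLN8237 for 24 h and 3 of PANC-1 cells given DMSO, the vehicle, for 24 h. They were chosen by the treatment in their labels. PANC-1 is a long-cultured line derived from a carcinoma of the human pancreas, and all libraries come from this 1 line. The other 6 libraries, used here for a second look at the same compound, come from cells given 30 nM chaetocin and 90 nM MLN8237 together (combination, 3 libraries) or 30 nM chaetocin alone (3 libraries). Libraries are called r1 to r3 within a group. Whether the libraries of a group are separate cultures is not in the labels. The p-values therefore reflect only how these libraries scatter, which may be technical.

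MLN8237 (alisertib) is an inhibitor of the kinase Aurora A. Aurora A gathers at centrosomes before mitosis, is activated there and on spindle microtubules by cofactors such as BORA and TPX2, and activates PLK1, which drives entry into mitosis. It is destroyed late in mitosis by the anaphase-promoting complex with FZR1. The genes of this machinery are themselves transcribed mainly in G2 and mitosis, so their summed RNA in a culture follows how many cells are in those phases as well as how much each cell makes. In bulk RNA, more or fewer cells in a phase and more or less RNA per cell cannot be told apart.

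Summed gene counts were 50004060 to 55969727 in the MLN8237 libraries and 49439795 to 57539126 in the vehicle libraries. Of the defining keratins of the line, KRT8, KRT18 and KRT19 were abundant in every library and KRT7 was low. KRT8, a keratin of simple epithelia, lay at 2281 to 2415 CPM (counts scaled to library size) in MLN8237 libraries and 2082 to 2428 CPM in vehicle libraries. KRT7 lay at 4.94 to 7.18 CPM in MLN8237 libraries and 3.49 to 4.86 CPM in vehicle libraries. Of the 14 acinar, 14 endocrine, 11 endothelial and 15 immune markers, 7, 4, 4 and 4 had no count in the 6 libraries. Summed acinar markers were 3.93 to 6.28 CPM in MLN8237 libraries and 3.27 to 3.72 CPM in vehicle libraries, nearly all from AMY2B, an amylase. Summed fibroblast markers were 64.8 to 74.0 CPM in MLN8237 libraries and 75.2 to 90.5 CPM in vehicle libraries, mostly from COL1A1, a collagen. The groups did not overlap for either sum, and the part of other cell types in the results was not tested. Immune markers summed to 173 to 205 CPM in MLN8237 libraries and 157 to 183 CPM in vehicle libraries, nearly all from CD68, a lysosomal glycoprotein.

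One library stood apart before any gene was considered. MLN8237 r3 gave 6.28% of its counts to cytosolic ribosomal proteins, against 4.09% and 4.31% in MLN8237 r1 and r2 and 3.71% to 4.26% in the vehicle libraries. On the first principal component of the 6 libraries, which held 49.5% of the variance of log2 CPM, MLN8237 r3 lay at 87.3 and the other 5 between −33.8 and −4.39. Over 12513 genes of at least 5 CPM, its log2 difference from the other MLN8237 libraries had an SD of 0.468, against 0.120 to 0.157 for the same measure in the vehicle libraries. The main results are therefore given with and without this library.

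Across genes, the shifts with MLN8237 were small. Of 22831 genes tested with edgeR's quasi-likelihood test, 1 passed an adjusted p of 0.05 (0.00438% of those tested), and it rose. None fell. DESeq2 and limma-voom also called 1 gene. At an unadjusted p under 0.05, 1226 genes were higher (5.37%) and 712 lower (3.12%). Without MLN8237 r3, 1 of 23643 genes passed (0.00423%), and 258 were higher (1.09%) and 361 lower (1.53%) at the unadjusted level.

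The shifts were smaller still when r3 was left out. Over the 12513 genes of at least 5 CPM, the median absolute log2 fold change was 0.151 with all 3 MLN8237 libraries and 0.0668 without r3, beside median standard errors of 0.123 and 0.110. With r3, 74.4% of these genes lay within 0.25 of 0 on the log2 scale, and 250 lay past 0.5. Without it, 96.4% lay within 0.25 and 30 lay past 0.5. The 95% interval of the fold change lay inside a log2 value of 1 in either direction for 12205 genes (97.5%) with r3. KIAA0754, which overlaps MACF1 in the table, was the single gene of that level past 1 and was named after its value was seen. It had 6.41, 4.15 and 1.03 CPM in MLN8237 libraries and 4.38, 12.1 and 8.71 CPM in vehicle libraries, so the groups overlapped (log2 fold change −1.11 ± 0.784 SE, adjusted p = 0.534, edgeR).

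The gene that passed was RP3-375P9.2 (ENSG00000217130; hg19 chromosome 6, 34711953 to 34712450), which GENCODE v29 annotates as a processed pseudogene, an intronless copy of a spliced transcript. No other gene in the table overlaps it, and the nearest gene with at least 1000 counts in all on either side is SNRPC, 12733 bases away. Its 498 bases aligned without a gap to the transcript of RPS10, a protein of the small ribosomal subunit whose gene lies on the same chromosome at 34385231 to 34393902. Of the 498 bases, 483 were identical (97.0%), and the longest identical run was 88 bases. The first 150 bases are shown beside the matching stretch of RPS10, starting at its start codon. Few positions there tell reads of the copy from reads of the gene. Of the 15 bases that differ over the whole copy, 2 lie in this stretch, so differences are sparser here than in the rest. Capitals mark the 2 bases that differ, and both sequences are from the GENCODE v29 transcripts.
RP3-375P9.2: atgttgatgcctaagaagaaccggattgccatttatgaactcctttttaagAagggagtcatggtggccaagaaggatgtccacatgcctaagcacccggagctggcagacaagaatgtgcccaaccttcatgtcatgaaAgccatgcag
RPS10: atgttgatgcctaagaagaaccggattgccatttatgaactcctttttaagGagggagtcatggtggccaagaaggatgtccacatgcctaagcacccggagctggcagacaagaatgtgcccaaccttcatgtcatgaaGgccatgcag

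RP3-375P9.2 had 62, 87 and 63 reads in MLN8237 r1 to r3, against 7, 6 and 6 reads in vehicle r1 to r3. The groups did not overlap, and r3 lay inside the range of its own group. In CPM these were 1.44 ± 0.333 with MLN8237 and 0.121 ± 0.0222 with vehicle (SD, n = 3 each), a log2 fold change of 3.55 ± 0.357 (SE; adjusted p = 0.00431, edgeR). Without r3 it was 3.58 (adjusted p = 0.0113). The call was lost without vehicle r2 (log2 fold change 3.49, adjusted p = 0.0799) and without vehicle r3 (3.47, 0.0816). It was also lost when only these 6 libraries entered the fit (3.55, 0.105) and without both libraries numbered 3 (3.50, 0.170).

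With chaetocin present, reads were few with and without MLN8237. RP3-375P9.2 had 12, 7 and 5 reads in combination libraries and 14, 10 and 12 reads in chaetocin libraries, a log2 fold change of −0.59 for combination minus chaetocin. The difference between the 2 effects of MLN8237, tested as an interaction in edgeR, had an adjusted p of 0.0630.

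RPS10 itself had 18504, 17831 and 27558 reads with MLN8237 and 17086, 17577 and 16616 with vehicle, so that only r3 was far from the rest (log2 fold change 0.43 ± 0.177, adjusted p = 0.516; 0.12 without r3). Reads of the copy came to 0.335%, 0.488% and 0.229% of those of RPS10 in MLN8237 libraries, against 0.0410%, 0.0341% and 0.0361% in vehicle libraries. The table lists 11 other copies named after RPS10, of which 2 were tested, with adjusted p of 0.873 or above. RPS10P7 aside, none had more than 23 reads in any of the 12 libraries. The sources used here do not give how reads that fit more than 1 of these copies were counted, so the level of RP3-375P9.2 is uncertain. The table also gives RPS10-NUDT3, which overlaps RPS10, 19757, 18915 and 28967 reads in MLN8237 libraries and 18197, 18905 and 17909 reads in vehicle libraries, somewhat more than RPS10 in each.

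**Figure D1:**
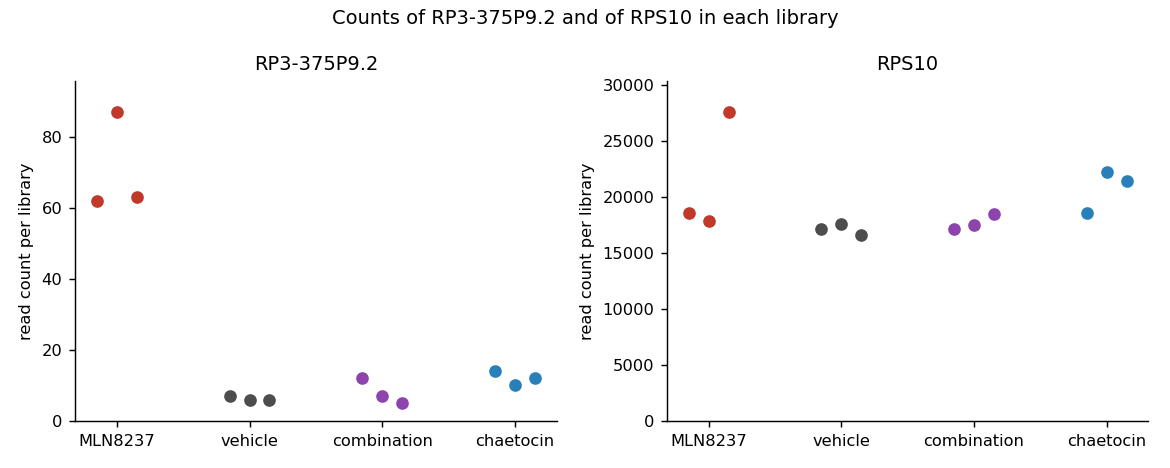
Read counts per library of RP3-375P9.2 (left) and of RPS10 (right) in the 4 groups. Each point is a library, r1 to r3 from left to right within a group. The 3 MLN8237 libraries lie at 62 to 87 reads of RP3-375P9.2 and the other 9 at 5 to 14, while for RPS10 MLN8237 r3 stands apart at 27558.

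No member of the Aurora list passed the test, and the target's own RNA was slightly higher. AURKA, which encodes Aurora A, had 234, 251 and 249 CPM with MLN8237 and 210, 209 and 199 CPM with vehicle. All 3 MLN8237 libraries lay above all 3 vehicle libraries, r3 among them. The means were 245 ± 9.13 and 206 ± 6.08 CPM (SD, n = 3 each), and the log2 fold change was 0.25 ± 0.0858 (95% interval 0.06 to 0.43; adjusted p = 0.516, edgeR). It was 0.23 without r3, and combination minus chaetocin gave 0.27 from 6 separate libraries.

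The other Aurora kinases did not separate the groups. AURKB, the kinase of the chromosomal passenger complex, had 89.4, 92.9 and 123 CPM with MLN8237 and 92.5, 86.5 and 78.7 CPM with vehicle. Only r3 was high, and the log2 fold change was 0.25 with r3 and 0.08 without. AURKC, whose product acts mainly in meiosis, lay at 1.05 to 1.56 CPM with MLN8237 and 1.09 to 1.38 CPM with vehicle. Per kilobase of gene, AURKA averaged 83.6 ± 3.12 CPM with MLN8237 and 70.4 ± 2.08 with vehicle, AURKB 45.5 ± 8.34 and 38.4 ± 3.11, and AURKC 0.708 ± 0.163 and 0.714 ± 0.0832 (SD, n = 3 each). Thus AURKA lay above AURKB, and AURKB above AURKC, in every library.

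Among activators of Aurora A, BORA had 25.3, 26.4 and 23.5 CPM with MLN8237 and 22.5, 22.4 and 21.8 CPM with vehicle, with no overlap (log2 fold change 0.18 ± 0.0820; 0.22 without r3). TPX2, which carries Aurora A to the spindle, lay at 789, 775 and 714 CPM with MLN8237 and 733, 758 and 736 CPM with vehicle, where MLN8237 r3 was the lowest of the 6. PLK1, a kinase that Aurora A activates, showed the same shape: 192, 208 and 161 CPM with MLN8237 and 178, 178 and 173 CPM with vehicle (log2 fold change 0.09 with r3 and 0.18 without).

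Partners of the Aurora kinases lay apart in r3 in both directions. BIRC5 (survivin) had 227, 238 and 300 CPM with MLN8237 and 226, 211 and 192 CPM with vehicle. INCENP, the scaffold of the complex, had 63.3, 55.3 and 30.5 CPM with MLN8237 and 57.4, 71.4 and 62.1 CPM with vehicle. CKAP5, a microtubule polymerase, had 369, 334 and 236 CPM with MLN8237 and 356, 419 and 372 CPM with vehicle. The 3 genes thus had their extreme value in the same library, BIRC5 upwards and INCENP and CKAP5 downwards.

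Of the 21 Aurora list genes, 5 lay above vehicle with no overlap and 0 below, beside 6.96% and 7.06% of all tested genes. The list median was 0.03 on the log2 scale with r3 (11 of 21 genes above 0) and 0.05 without it (13 of 21). Over genes of at least 5 CPM, 6340 and 6495 of 12513 were above 0 in the same order. With r3, the share of the list above 0 was thus near that of all such genes. Without r3, 9 of 21 lay above with no overlap between the 2 and 3 libraries and 1 below, beside 10.4% and 10.3% of all tested genes. The median for combination minus chaetocin was 0.17, with 17 of 21 genes above 0, where 4828 of the 12513 genes of at least 5 CPM were above 0.

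Genes of mitosis and G2 also had more members above than below vehicle with no overlap. Leaving out r3 brought more of them above vehicle. None of the 92 list genes passed the test (smallest adjusted p = 0.516, edgeR). With all libraries, 53 of 92 had a log2 fold change above 0 (median 0.03), beside 6340 of 12513 genes of at least 5 CPM. At an unadjusted p under 0.05 (edgeR), 17 of the 92 were higher and 1 lower, beside 5.37% and 3.12% of all tested genes. With no overlap, 19 lay above vehicle and 1 below, beside 6.96% and 7.06% of all tested genes. Without r3, 72 of 92 were above 0 (median 0.07), beside 6495 of 12513 genes of at least 5 CPM (median 0.01), and 35 lay above with no overlap and 1, KIF15, below, beside 10.4% and 10.3% of all tested genes. For combination minus chaetocin, 68 of 92 were above 0 (median 0.11), beside 4828 of 12513 genes of at least 5 CPM (median −0.05). The Aurora and mitotic lists share 2 genes, CDC20 and CENPE.

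The 7 mitotic genes with the smallest p are FAM64A, NDC80, SPC25, TROAP, CCNB1, PTTG1 and CCNB2. CDC20 and KIF20A are shown with them, chosen after their values were seen. FAM64A (PIMREG), a gene of mitotic cells, had 82.1, 91.9 and 99.5 CPM with MLN8237 and 72.3, 69.2 and 63.4 CPM with vehicle. NDC80, the microtubule-binding kinetochore protein, had 81.1, 88.0 and 107 CPM with MLN8237 and 72.4, 71.4 and 71.1 CPM with vehicle. The groups were fully separated for both genes, with log2 fold changes of 0.42 ± 0.0981 and 0.36 ± 0.0964 (SE), 0.35 and 0.24 without r3, and adjusted p of 0.516 (edgeR). SPC25, a partner of NDC80 in the same kinetochore complex, had 41.3, 45.9 and 48.7 CPM with MLN8237 and 40.5, 37.2 and 33.0 CPM with vehicle, also without overlap (log2 fold change 0.30 ± 0.0967; 0.24 without r3).

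CCNB1, the cyclin B1 that activates CDK1 for mitotic entry, had 441, 476 and 533 CPM with MLN8237 and 416, 394 and 367 CPM with vehicle. CCNB2, its close relative, had 126, 139 and 140 CPM with MLN8237 and 120, 113 and 102 CPM with vehicle. In both cyclins the 3 MLN8237 libraries lay above the 3 vehicle libraries, with log2 fold changes of 0.30 ± 0.101 and 0.28 ± 0.0990. CDC20, the activator of the anaphase-promoting complex, had 337, 367 and 359 CPM with MLN8237 and 330, 305 and 297 CPM with vehicle, again without overlap (log2 fold change 0.19 ± 0.0900).

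Some members were high or low through r3. PTTG1 (securin), which restrains the separation of sister chromatids until anaphase, had 166, 192 and 319 CPM with MLN8237 and 166, 149 and 138 CPM with vehicle. Its log2 fold change was 0.58 with r3 and 0.24 without. KIF20A, a kinesin of cytokinesis, had 143, 150 and 99.7 CPM with MLN8237 and 121, 131 and 116 CPM with vehicle. Without r3 its groups did not overlap (log2 fold change 0.26), and with r3 they did (0.10). TROAP, a spindle-associated protein, kept r3 with its group at 70.0, 71.7 and 65.4 CPM with MLN8237, against 57.2, 57.2 and 57.1 CPM with vehicle.

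The 39 mitotic genes below 0 with r3 were longer than the list as a whole, with a median gene length of 5499 against 4104 bases. CENPF and MKI67, the furthest below 0, were chosen after their values were seen. CENPF, a kinetochore protein with 11663 bases of gene length in the table, had 340, 307 and 288 CPM with MLN8237 and 330, 421 and 436 CPM with vehicle (log2 fold change −0.34 ± 0.131). MKI67, the proliferation antigen Ki-67, with 12807 bases, had 347, 310 and 305 CPM with MLN8237 and 319, 389 and 477 CPM with vehicle. In both, vehicle r1 lay among the MLN8237 libraries and vehicle r2 and r3 above them, and combination minus chaetocin had the opposite sign (0.13 and 0.33).

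**Figure D2:**
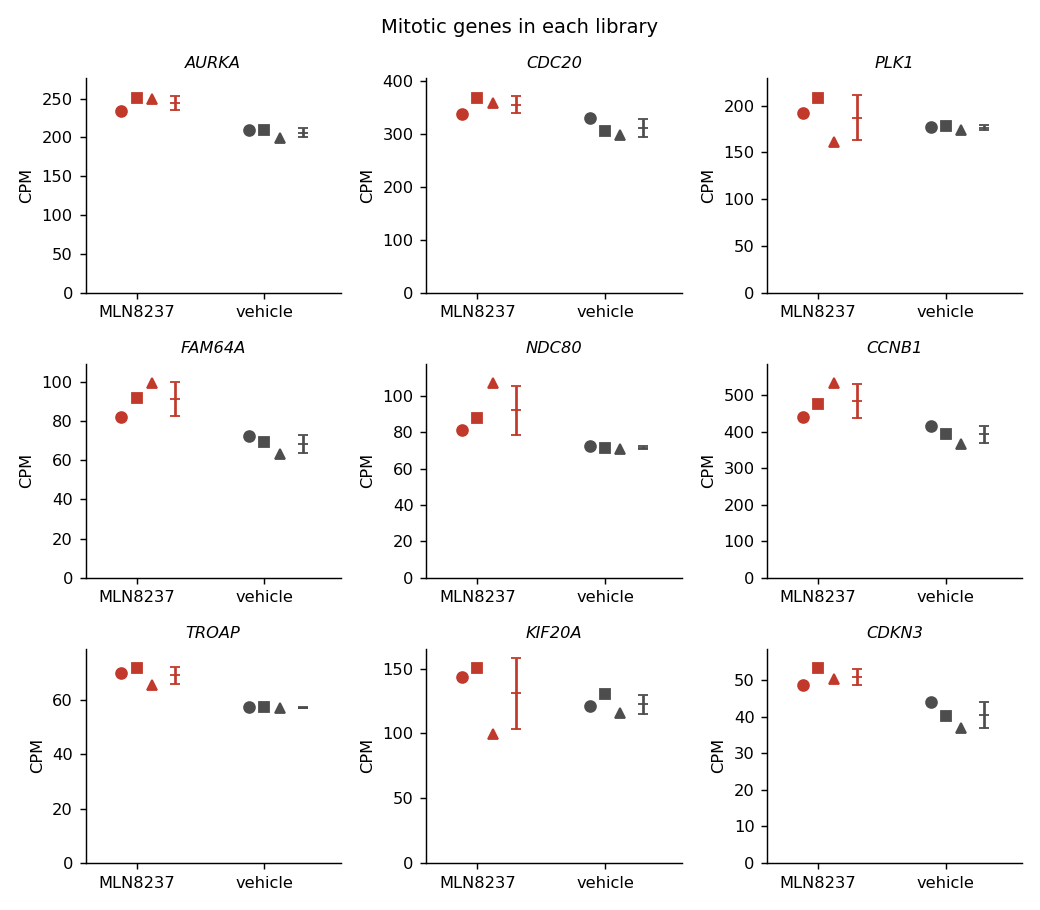
TMM-scaled CPM of 9 genes of mitosis and of the Aurora pathway in the MLN8237 (left) and vehicle (right) libraries; circles are r1, squares r2, triangles r3, and bars give the mean and SD of 3 libraries. AURKA, CDC20, FAM64A, NDC80, CCNB1, TROAP and CDKN3 do not overlap between the groups, while MLN8237 r3 is the lowest of the 6 libraries for PLK1 and KIF20A.

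Promoters of the mitotic list were read from RefSeq (GRCh38.p14), which held 79 of the 92 genes. Short motifs known from promoters of G2 and mitosis genes were searched on both strands in the 250 bases before each start: TTTGAA, the core of the cell cycle homology region, and CCAAT, the box bound by NF-Y. The motifs do not overlap each other. TTTGAA was in 34 of 79 mitotic promoters (43.0%) and 3704 of 27305 promoters of all genes (13.6%). CCAAT was in 52 (65.8%) and 9021 (33.0%). A match is a description of these letters, not a binding site. The motifs are known from genes of this kind, so the shares describe the list and not its response to MLN8237. The last 150 bases before the start are shown for the cyclins CCNB2 and CCNB1 and for PLK1, 5′ to 3′ on the strand of the gene, with either motif, or its complement on the other strand, in capitals. They lie at chr15:59104996-59105145, chr5:69167000-69167149 and chr16:23678739-23678888, all on the plus strand.
CCNB2: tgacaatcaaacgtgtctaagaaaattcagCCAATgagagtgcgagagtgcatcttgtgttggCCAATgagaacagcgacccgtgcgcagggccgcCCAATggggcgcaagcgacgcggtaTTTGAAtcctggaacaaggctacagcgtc
CCNB1: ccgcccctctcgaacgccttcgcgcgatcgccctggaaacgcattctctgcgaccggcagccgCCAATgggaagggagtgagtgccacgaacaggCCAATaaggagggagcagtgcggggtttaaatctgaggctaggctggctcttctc
PLK1: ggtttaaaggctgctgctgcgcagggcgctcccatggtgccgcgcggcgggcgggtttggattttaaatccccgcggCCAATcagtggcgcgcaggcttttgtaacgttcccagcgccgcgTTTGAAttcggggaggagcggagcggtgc

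Inhibitors of cyclin-dependent kinases were above vehicle in all 6 genes measured by their fold change (median log2 0.26; 0.15 without r3), and none passed the test. CDKN3, a phosphatase that inactivates CDK2 and is transcribed in mitosis, had 48.8, 53.3 and 50.4 CPM with MLN8237 and 44.0, 40.3 and 36.9 CPM with vehicle. Its groups did not overlap, r3 lay within its group, and the log2 fold change was 0.33 ± 0.0846 with r3 and 0.34 without (adjusted p = 0.516, edgeR). CDKN2C (p18), an inhibitor of CDK4 and CDK6, had 71.3, 75.2 and 83.2 CPM with MLN8237 and 67.9, 64.7 and 61.3 CPM with vehicle, also without overlap. CDKN1A (p21), an inhibitor of CDK2 that arrests the cycle, had 41.9, 40.3 and 51.0 CPM with MLN8237 and 40.0, 37.9 and 43.4 CPM with vehicle, where the groups overlapped (log2 fold change 0.13 ± 0.197, 95% interval −0.29 to 0.56).

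Among replication-dependent histone genes, whose main transcripts lack a poly(A) tail, 11 of 48 lay above vehicle with no overlap and 2 below, beside 6.96% and 7.06% of all tested genes, and none passed. HIST2H2BE, an H2B gene, had 4.56, 4.07 and 5.20 CPM with MLN8237 and 3.33, 2.41 and 2.92 CPM with vehicle (log2 fold change 0.68 ± 0.165, adjusted p = 0.516, edgeR; 0.58 without r3). HIST1H2BC had 3.64, 4.34 and 4.19 CPM with MLN8237 and 2.29, 2.74 and 2.86 CPM with vehicle. HIST1H2AC had 15.2, 18.7 and 21.6 CPM with MLN8237 and 13.8, 13.4 and 11.6 CPM with vehicle. All 3 separated the groups. At an unadjusted p under 0.05 (edgeR), 7 of the 48 were higher and 2 lower, beside 5.37% and 3.12% of all tested genes. Many of the 48 lay near the count floor, such as HIST1H2AB with 0 CPM in each MLN8237 library and at most 0.0358 CPM with vehicle. The list medians therefore rest largely on such genes. The list median was 0.08 with r3, 0.15 without it and 0.56 for combination minus chaetocin, where 43 of 48 were above 0. Among all tested genes, 11573 of 22831 were above 0 in that contrast. Histone genes are near-identical to one another, so how reads were shared among them is uncertain.

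Interferon-stimulated genes leaned higher with and without r3. The median over 56 genes was 0.13 with r3 and 0.12 without, none passed, and 12 lay above vehicle with no overlap and 2 below, beside 6.96% and 7.06% of all tested genes. Without r3, 19 lay above and 2 below, beside 10.4% and 10.3% of all tested genes. PSMB8, a subunit of the immunoproteasome, had 34.4, 39.1 and 52.4 CPM with MLN8237 and 34.0, 29.2 and 29.7 CPM with vehicle. HLA-C, a class I antigen-presenting molecule, had 86.2, 93.4 and 117 CPM with MLN8237 and 82.1, 76.4 and 74.5 CPM with vehicle. IFITM3, which blocks viral entry, had 276, 322 and 312 CPM with MLN8237 and 273, 258 and 219 CPM with vehicle. With chaetocin present the list median for combination minus chaetocin was −0.07, with 23 of 56 genes above 0. Over genes of at least 5 CPM that median was −0.047, with 4828 of 12513 above 0, so the list lay near all such genes.

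Immediate early genes, the first response to growth factors and stress, had a median of 0.21 with r3 and 0.09 without. Of 32, 9 lay above vehicle with no overlap and 1 below, beside 6.96% and 7.06% of all tested genes, and none passed. EGR1, a zinc finger factor, had 3.97, 4.90 and 3.93 CPM with MLN8237 and 2.26, 2.57 and 3.95 CPM with vehicle, where vehicle r3 overlapped the MLN8237 libraries. JUNB, a subunit of AP-1, had 18.1, 19.6 and 22.2 CPM with MLN8237 and 16.3, 16.4 and 15.4 CPM with vehicle, without overlap. For combination minus chaetocin the log2 fold changes of EGR1 and JUNB were 1.41 and 0.48. The other members named by rule were FOS and NR4A2, given here as reads not scaled to library size. FOS had 61, 37 and 57 reads with MLN8237 and 28, 24 and 45 with vehicle. NR4A2 went the other way, with 13, 8 and 16 reads with MLN8237 and 24, 17 and 26 with vehicle.

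Genes of ribosomes, oxidative phosphorylation and the proteasome were high in MLN8237 r3 and much nearer to vehicle in r1 and r2. Without r3, 84 of 87 ribosomal protein, 71 of 74 oxidative phosphorylation and 28 of 31 proteasome genes had a log2 fold change above 0. This compares with 6495 of 12513 genes of at least 5 CPM. Of 87 cytosolic ribosomal protein genes, 86 had their highest value of the 6 libraries in r3. At an unadjusted p under 0.05, 45 were higher and 0 lower, beside 5.37% and 3.12% of all tested genes. With no overlap, 5 lay above vehicle and 0 below, a share near the 6.96% of all tested genes that lay above, and none passed. The median log2 fold change was 0.37 with r3 and 0.11 without, and −0.20 for combination minus chaetocin, where 3 of 87 were above 0. Over genes of at least 5 CPM, 4828 of 12513 were above 0 in that contrast (median −0.05). RPS29, of the small subunit, had 250, 267 and 461 CPM with MLN8237 and 255.5, 218 and 188 CPM with vehicle.

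Nuclear genes for oxidative phosphorylation gave nearly the same numbers. In 72 of 74 the highest value was in r3, and the median was 0.37 with r3 and 0.09 without. For combination minus chaetocin it was −0.18, with 0 of 74 above 0, beside 4828 of 12513 genes of at least 5 CPM. NDUFB3, a subunit of complex I, had 50.9, 56.3 and 86.7 CPM with MLN8237 and 50.6, 45.3 and 40.9 CPM with vehicle. Of 31 proteasome subunits, 29 were highest in r3, and the median was 0.25 with r3 and 0.07 without. PSMB3 had 83.0, 91.5 and 152 CPM with MLN8237 and 86.4, 77.9 and 75.1 CPM with vehicle.

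**Figure D3:**
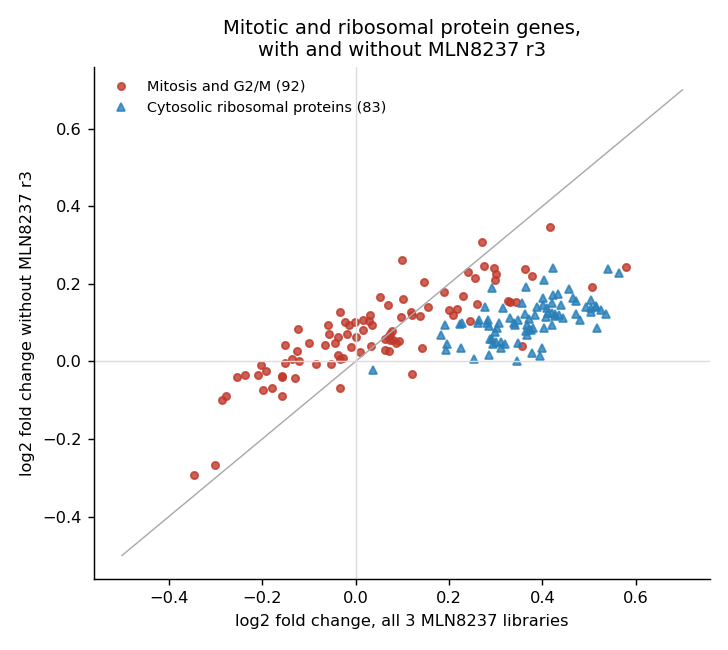
Log2 fold change of MLN8237 minus vehicle per gene, with all 3 MLN8237 libraries (horizontal) and without MLN8237 r3 (vertical), for 92 genes of mitosis and G2 (circles) and 83 cytosolic ribosomal protein genes averaging 5 CPM or more in vehicle (triangles); on the diagonal both are equal. Ribosomal protein genes lie to the right of the diagonal, with medians of 0.37 and 0.11 over all 87 tested, while 38 of the 39 mitotic genes below 0 with r3 lie higher without it, 20 of them above 0.

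MLN8237 r3 also differed by gene length. Genes of at least 5 CPM were split into 5 bins of near equal size by the gene length in the table. In the shortest bin, up to 2393 bases, the median log2 level relative to the vehicle mean was 0.03, 0.10 and 0.45 in MLN8237 r1, r2 and r3, against 0.07, −0.04 and −0.04 in vehicle r1, r2 and r3. In the longest bin, from 7487 bases, it was −0.05, −0.10 and −0.32 with MLN8237 and −0.07, 0.04 and 0.03 with vehicle. The slope was therefore steepest in MLN8237 r3, and vehicle r1 lay between MLN8237 r1 and r2 in both bins. Across 12513 genes, Spearman's rho of length with the deviation of r3 was −0.43, and with the log2 fold change without r3 it was −0.46. These are descriptions over genes that share the same libraries.

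Other libraries numbered 3 deviated from their groups in a like pattern. Over the same 12513 genes, the deviation of MLN8237 r3 from r1 and r2 correlated with that of combination r3 at r = 0.714 and of chaetocin r3 at r = 0.735, but with that of vehicle r3 at r = 0.012. The ribosomal protein genes show the sizes: the number-3 library lay above the other 2 by a median log2 value of 0.69 in MLN8237, 0.21 in combination and 0.20 in chaetocin, and −0.11 in vehicle. The labels name no batch, and what the number 3 shares was not tested.

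**Figure D4:**
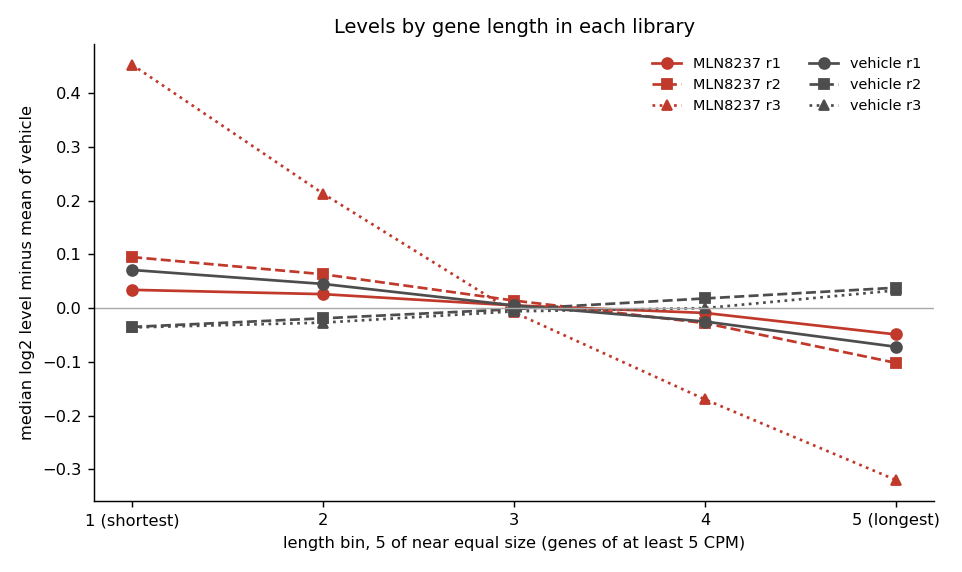
Median log2 level of each MLN8237 and vehicle library relative to the mean of the 3 vehicle libraries (vertical), in 5 bins of genes of at least 5 CPM by gene length (horizontal). MLN8237 r3 lies at 0.45 in the shortest bin and −0.32 in the longest, and vehicle r1 runs between MLN8237 r1 and r2, and vehicle r2 and r3 slope the other way.

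Of the 6 genes of at least 5 CPM that lay furthest above MLN8237 r1 and r2 in r3, 5 were mitochondrial transfer RNAs, whose genes are 59 to 75 bases long. MT-TS2, for serine, had 16.5, 13.1 and 67.4 CPM with MLN8237 and 17.3, 14.1 and 23.8 CPM with vehicle. Summed over 22 such genes, the level was 540, 525 and 815 CPM with MLN8237 and 556, 531 and 625 CPM with vehicle, and chaetocin r3 was high as well, at 736 CPM against 470 and 553 CPM in chaetocin r1 and r2. MLN8237 r3 was the highest of the 6 libraries for 15 of the 22 genes. Some abundant ones lay the other way: MT-TL1, for leucine, had 123, 114 and 57.7 CPM with MLN8237 and 126, 123 and 130.4 CPM with vehicle, and r3 was also the lowest of the 6 for MT-TY and MT-TC.

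The genes with the smallest p among those higher with no overlap mixed mitotic and other genes. Of the 12 named by rule, FAM64A, CDKN3 and NDC80 are described above. TNFAIP8L1, of the TNFAIP8 family, had 16.2, 18.1 and 19.4 CPM with MLN8237 and 13.1, 12.4 and 12.5 CPM with vehicle (log2 fold change 0.50 ± 0.112; 0.44 without r3). UBALD2 had 15.2, 17.0 and 22.4 CPM with MLN8237 and 10.96, 11.1 and 11.8 CPM with vehicle (0.69 ± 0.199; 0.51 without r3). DCTN3, a subunit of dynactin, which links dynein to its cargo, had 54.6, 59.7 and 66.3 CPM with MLN8237 and 53.4, 47.2 and 41.1 CPM with vehicle. All had an adjusted p of 0.516 (edgeR). BORA, FAM64A, NDC80, TROAP, KIF20A, PLK1, LYST, PCNT and TNFAIP8L1 overlap another gene in the table. So do BIRC5, CCNB1, CCNB2, CENPF, CKAP5, KIF15 and SPC25, and other genes named here may as well. Without a known strand setting, reads of overlapping genes cannot be told apart. For combination minus chaetocin, 11 of the 12 genes were above 0, at values up to 0.37, beside 4828 of 12513 genes of at least 5 CPM.

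The genes with the smallest p among those lower were long. The 12 named by rule had gene lengths of 4834 to 19616 bases, with a median of 11139.5, against 4529 over all genes of at least 5 CPM. FAT1, an atypical cadherin, had 197, 166 and 134 CPM with MLN8237 and 197, 260 and 322 CPM with vehicle (log2 fold change −0.65 ± 0.198). LYST, a regulator of lysosome traffic, had 74.3, 66.3 and 62.4 CPM with MLN8237 and 79.0, 87.4 and 107 CPM with vehicle. PCNT (pericentrin), a centrosome scaffold, had 37.8, 34.8 and 33.8 CPM with MLN8237 and 40.4, 45.9 and 50.5 CPM with vehicle.

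In FAT1, LYST and PCNT the lowest vehicle library was r1, close to MLN8237 r1. FGFR3, a growth factor receptor and the shortest of the 12, had 4.83, 4.67 and 4.08 CPM with MLN8237 and 6.48, 5.44 and 7.15 CPM with vehicle. For combination minus chaetocin, 2 of the 12 were below 0, with a range of −0.16 to 0.24. Among genes of at least 5 CPM, 4828 of 12513 were above 0 in that contrast. With the length trend of each library removed, an analysis added after the data were seen, the 12 log2 fold changes lay between −0.49 and −0.10, and between −0.42 and −0.12 with r3 also left out.

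With the same length correction, the mitotic and the ribosomal protein medians both stayed above 0. With r3 kept, both were smaller than without the correction. Without r3 and with the trend removed, 72 of 92 mitotic genes were above 0 (median 0.07), beside 6292 of 12513 genes of at least 5 CPM. With r3 kept, 52 were above 0 (median 0.02), beside 6161 of 12513. The ribosomal protein median was 0.25 with the trend removed (86 of 87 genes above 0) and 0.07 with r3 also left out (76 of 87). The histone median was −0.07 and 0.10 in the same order. The interferon-stimulated median was 0.08 and 0.10, with 48 of 56 genes above 0 in the second case. The immediate early median was 0.075 (18 of 32 genes above 0) and 0.036 (23 of 32). For inhibitors of cyclin-dependent kinases it was 0.109 and 0.103, with 5 of 6 genes above 0 in each case. For the Aurora list it was 0.009 (11 of 21 genes above 0) and 0.047 (15 of 21).

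**Figure D5:**
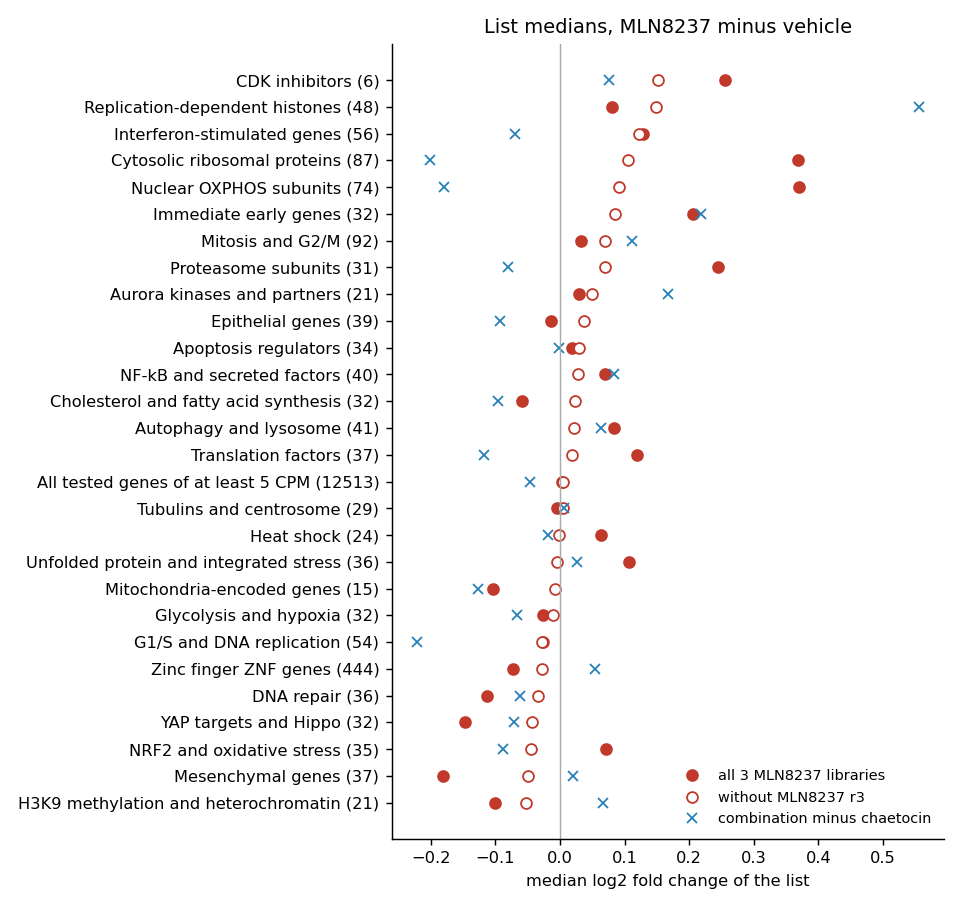
Median log2 fold change of the gene lists shown for MLN8237 minus vehicle, with all 3 MLN8237 libraries (filled circles), without MLN8237 r3 (open circles), and for combination minus chaetocin (crosses); the number of genes tested is in brackets. Ribosomal proteins, nuclear OXPHOS subunits and proteasome subunits lie at 0.25 to 0.37 with r3 and at 0.07 to 0.11 without it, and histone genes reach 0.56 for combination minus chaetocin.

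The contrast of combination with chaetocin, which shares no library with MLN8237 and vehicle, called 0 of 22831 genes in edgeR (0%). At an unadjusted p under 0.05, 1582 were higher and 1095 lower. The interaction between the compounds also called 0 genes (0%), with 1339 above and 1769 below 0 at an unadjusted p under 0.05. The smallest adjusted p was 0.129 for combination minus chaetocin. For the interaction it was 0.0630, the value of RP3-375P9.2 given above.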

How the data were processed

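The deposited count table gives whole-read counts per gene for 12 libraries, made by the authors from reads of PANC-1 RNA. It has 57773 genes. Per the submitters' processing notes, CASAVA 1.9, TopHat 12.0.6 (as printed there), HTSeq and the build hg19 were used, with no role or order given. No source used here gives the strand setting. The RPKM values deposited by the authors served only to recover a second total per library and entered no test. Labels of the combination give a code that differs from MLN8237 by a digit, read here as MLN8237.

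Counts were scaled by TMM and tested with edgeR 4.0.16 (quasi-likelihood, robust) in R 4.3.3, with a mean for each of 4 groups over all 12 libraries, after filterByExpr by group had left 22831 genes. P-values were adjusted by Benjamini-Hochberg over these, with a threshold of 0.05. Standard errors are the fold change over the root of F. CPM are TMM-scaled, log2 CPM use a prior count of 2, and the common biological coefficient of variation was 0.155. DESeq2 1.42.0 and limma 3.58.1 (voom) were alternatives, beside other scaling, filters, leaving out libraries and a replicate block. Offsets that remove each library's trend on gene length were added after the data were seen. The fit was tested on simulated data with known fold changes. Promoters are from RefSeq.

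Named genes were those past the threshold, the 12 each way with the smallest p among genes of at least 5 CPM without overlap, the 10 each way without MLN8237 r3, the 6 each way furthest apart in that library, the Aurora list and up to 4 of each other list. The members and lists were chosen with earlier results of these data known. Other genes named are said to have been chosen after their values were seen or are list members of known role. One gene list is not reported here.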

Additional observations from a re-analysis of the deposited data

How the results depend on the processing

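The count of 1 gene held in 14 alternatives, DESeq2, limma-voom, RLE scaling and both other filters among them, and was 0 in 5. With only the 6 libraries it was 0 (smallest adjusted p = 0.105, edgeR; 847 genes at an unadjusted p under 0.05), and with both libraries numbered 3 left out it was 0 (0.170; 420 genes). Leaving out 1 library at a time gave 0 to 1, with 0 without vehicle r2 (797 genes at an unadjusted p under 0.05) and without vehicle r3 (749). The stricter filter asked for 1 CPM in 3 libraries, which RP3-375P9.2 reached only in the MLN8237 libraries. Its call under that filter is therefore no separate support. The log2 fold change of RP3-375P9.2 lay between 3.36 and 3.70 when 1 library was left out. The cause was not tested.

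Deviations of same-numbered MLN8237 and vehicle libraries from their group means correlated at r = −0.515, 0.536 and 0.012 for numbers 1, 2 and 3 over 12513 genes, so the numbers were not taken to pair these libraries. With the replicate block the count was 1 over all 12 libraries and 0 with only the 6 libraries (smallest adjusted p = 0.638; 512 genes at an unadjusted p under 0.05).

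Of 68 genes followed under the alternatives, not all of them quoted here, 8 changed sign under some alternative. All 8 are genes named in the text. With 1 library left out, log2 fold changes ran from −0.015 to 0.26 for KIF20A, −0.003 to 0.182 for PLK1, −0.216 to 0.08 for AURKC and −0.311 to 1.181 for MT-TS2. With the length trend removed, TPX2 was at −0.025, and with MLN8237 r3 also left out CDKN1A was at −0.021, MT-TS2 at −0.275, MT-TC at 0.022 and MT-TY at 0.015. MT-TS2 was at −0.082 without both libraries numbered 3 and at −0.31 without the 3 treated ones. Of list medians under alternatives, 437 moved by less than the spread between libraries and 157 by more. The cause was not tested.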
